A study of Bos taurus with 24 samples.

Results

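The 300 exon bins whose share of their gene's reads varied most between bulls were taken from the testicular mRNA of 24 Holstein bulls. An exon bin is a stretch of exon that is counted on its own, and the share of a bin is its count divided by the sum over all bins of its gene. Bins were ranked by spread, the difference in percentage points between the third highest and the third lowest share of the 24 bulls, with no use of diet. The ranking covered 88771 bins in 6935 genes with 3 to 49 bins and at least 100 counts in every bull, out of 210707 bins in 24525 gene features. The 300 bins lay in 260 genes and are named below by their rank, rank 1 being the widest spread. Genes carry Ensembl identifiers that the files do not pair with names, so only 4 are given by identifier, and others are given by letters or by the number of their bins. Gene lists and markers of testicular cell types could not be matched, so the tissue label was not checked against markers.

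One gene can give several mature transcripts. Transcripts that start at different promoters differ in their first exon, those cut and polyadenylated at different sites differ in their last exon, and exons between can be kept or skipped. Each of these choices moves reads from one bin to others of the same gene, and the testis is known for a rich set of such transcripts. The share of a bin can also move with how evenly reads cover a transcript. Bin numbers run along the gene, and as the files give no strand, the first and the last bin are its 2 ends without a statement of which is the 5′ end.

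One library was made from the testicular parenchyma of each bull, castrated at 72 wk of age. Bulls received a high (HD, 20.0% crude protein and 67.9% total digestible nutrients), medium (MD, 17.0% and 66.0%) or low diet (LD, 12.2% and 62.9%) from 2 to 32 wk of age, with 8 bulls per diet, and according to the methods all were fed the MD afterwards. MD was the control diet. The study asked how prepubertal diet relates to the testicular transcriptome, and every bull is an independent replicate. Testicular tissue holds several cell types, and a change in the mixture of cells cannot be told apart from a change in transcript choice within a cell.

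Libraries held 9163675 to 21902110 counts on bins. The genes with a variable bin were counted less than others, as their lowest count over bulls had a median of 162, against 352 over the 6935 genes. Exact 95% binomial intervals of a single share had a median width of 9.39 percentage points over the 300 bins and 24 bulls, and they cover counting error only. Libraries of HD bulls 13 and 14 stood apart. Over the 6675 genes without a variable bin, the more counted of the 2 end bins held 24.7% of the reads in HD 13 and 24.2% in HD 14, and 21.5% to 23.2% in the other 22 bulls. HD bulls averaged 22.6 ± 1.23% (SD, n = 8 per diet) in this share, MD bulls 22.1 ± 0.318% and LD bulls 22.2 ± 0.442%, and two-sided exact permutation tests gave p = 0.245 for HD and MD, 0.371 for HD and LD and 0.470 for MD and LD (each 0.470 after adjustment over the 3). The differences of single bins between diets are therefore given with and without HD 13 and HD 14. Counts over many bins or genes are from all 24 bulls unless stated.

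Variable bins lay mostly at the ends of genes. The first bin of a gene made up 111 of the 300 (37.0%), the last bin 115 (38.3%) and inner bins 74 (24.7%). Of all bins ranked, 7.81% were first, 7.81% last and 84.4% inner. Of all 3038 bins of the same 260 genes, 17.1% were end bins, compared with 226 of 300 (75.3%) among the variable ones. The variable bins were also the large ones, since 230 (76.7%) were the most counted bin of their gene and 45 the second most counted. Of the 226 end bins, 194 were the most counted. First bins had a median share of 36.3%, last bins 40.3% and inner bins 25.3%, while the median over all ranked bins was 5.27%. These figures describe the choice by spread, because a bin with a large share has room for a wide spread.

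**Figure D1:**
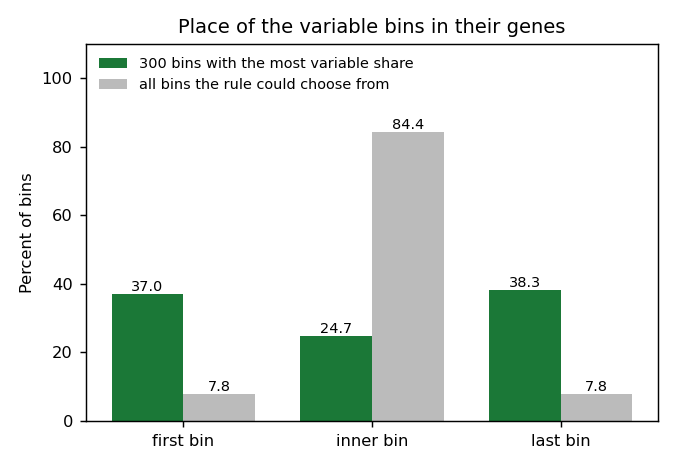
Percent of bins (y axis) that were the first, an inner or the last bin of their gene, for the 300 variable bins (green) and for all bins ranked (grey). First and last bins made up 37.0% and 38.3% of the variable bins and 7.8% each of all bins.

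Counted once per gene, the 260 genes had a median of 10 bins and all 6935 had 11. Counted once per bin, so that a gene weighs by its number of bins, the median was 9 over the 300 and 16 over all bins ranked. Genes of 8 bins held 42 of the variable bins (14%, compared with 3.82% of all bins), in 26 genes. Genes of 4 bins held 34 (11.3% against 2.19%) and genes of 5 bins held 27 (9% against 2.61%).

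The spread ran from 11.9 to 35.8 percentage points with a median of 13.8, while over all bins ranked the median was 1.93. The last bins inside the limit, ranks 298 to 300, had spreads of 11.936, 11.932 and 11.9233 percentage points, and the next 3 outside had 11.9223, 11.912 and 11.9107. The limit thus fell in a continuous range. The variance of the share over bulls was compared with the variance that binomial counting alone would give. The ratio had a median of 6.13 over the 300 bins (1.25 over all) and a range of 1.32 to 250, and it exceeded 2 in 286 bins, 4 in 205 and 10 in 91. The bins were chosen for this variance, so a ratio above that of all bins follows from the choice, and it holds differences between libraries of any kind. Inner bins had the highest median ratio (9.17), above first (6.02) and last bins (5.36).

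The bin of rank 1 was the last of 18 bins of ENSBTAG00000020878, and its share ran from 7.41% to 58.5%. Rank 2 was bin 9 of 10 in a gene here called A, at 0 to 37.5% with a median of 1.03%. Rank 3 was bin 4 of 8 in a gene here called C (7.35% to 53.2%), and rank 4 was bin 5 of 10 in gene A (1.76% to 43.6%). Among the next 6, rank 5, bin 11 of an 18-bin gene, ran from 36.5% to 82.4% and rank 6, the last of 8 bins, from 23.1% to 58.7%. Rank 7, bin 7 of 11, ran from 17.7% to 59.5%, and rank 8, bin 4 of 8 in a gene here called D, from 5.88% to 55.1%. Rank 9, the last of 13 bins, ran from 25.2% to 66.3%. Rank 10, bin 6 of 8, was the main bin of its gene in every bull and ran from 54.9% to 96.2%. Of these 10 bins, 3 were last bins and 7 were inner, whereas end bins prevailed over the whole 300.

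**Figure D2:**
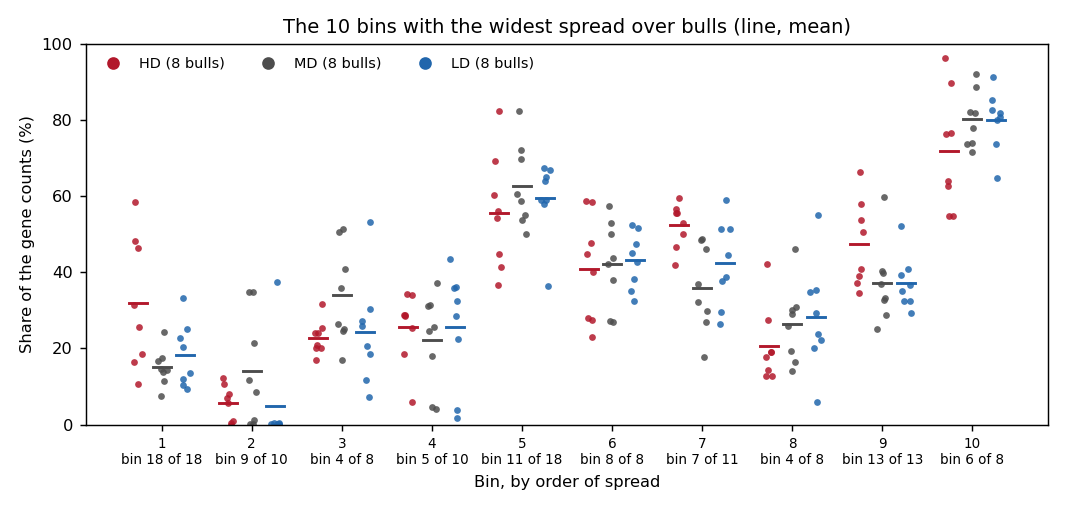
Share of the gene's counts in percent (y axis) for the 10 bins with the widest spread (x axis, in order of spread), one point per bull coloured by diet, with a line at the mean of each diet. Points of the 3 diets overlap in each bin, and only rank 2 has a median near 0.

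The bin with the largest excess over counting variance (ratio 250) was rank 259, the first of 40 bins of a gene with 2149 to 8349 counts. Its median share was 14.4%, and it reached 29.0% in HD 13 and 50.9% in HD 14 while every other bull lay between 9.57% and 22.8%. A different pattern was seen in rank 37, the last of 45 bins. Its median was 8.03% and its lowest share 5.86% in LD 2, and it took 31.1% in HD 12, 28.4% in MD 17, 27.3% in MD 18 and 27.0% in HD 13, on 2 different diets. The neighbouring bin 44 of that gene was also among the 300 and followed it over the 24 bulls (r = 0.99).

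On or off bins were few. A bin was counted as on or off when its share was under 1% in at least 3 bulls and over 10% in at least 3 others, and 4 of the 300 met this, ranks 2, 78, 197 and 256. Of all 88771 bins ranked, 5 met it. By contrast, 295 of the 300 stayed above 1% in every bull and 250 above 10% in every bull. In 4 bins the count was 0 in at least 1 bull, and in 2 of them in at least 3 bulls. The 4 on or off bins came from 3 genes, A, C and one here called B, which also held the most variable bins (5 in A, 5 in B and 4 in C). With limits of 2% and 10% the number was 5, and with 1% and 5% it was 4.

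**Figure D3:**
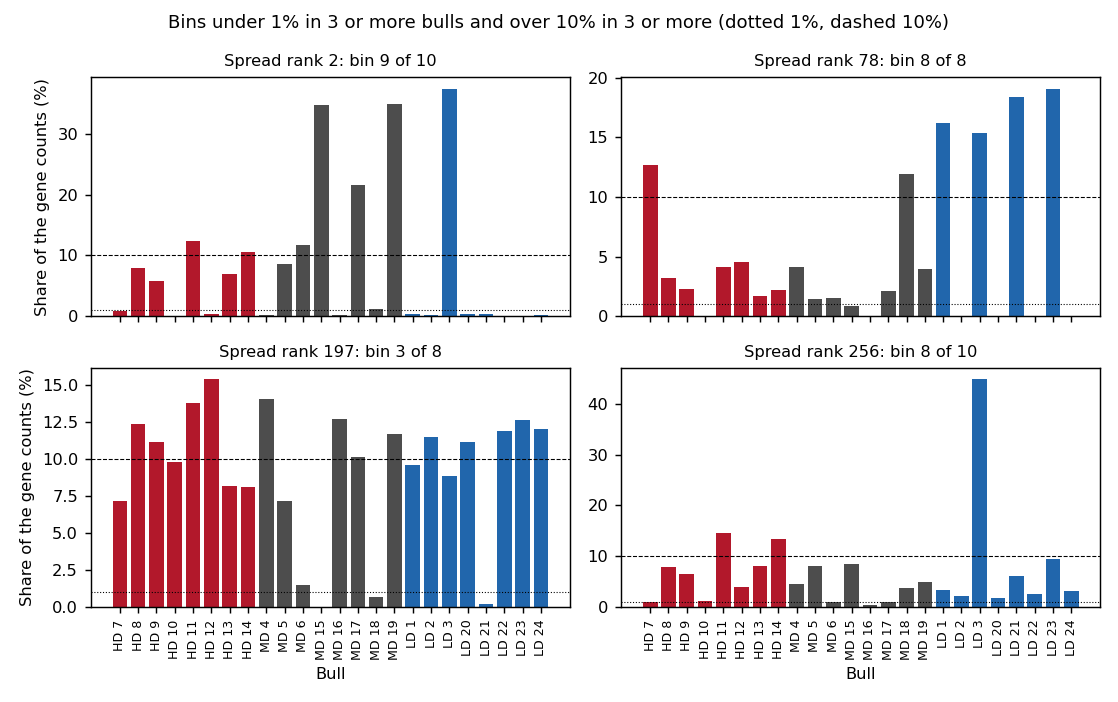
Share of the gene's counts in percent (y axes, each with its own scale) in each of the 24 bulls (x axes) for the 4 bins that were under 1% (dotted line) in at least 3 bulls and over 10% (dashed line) in at least 3. Bars are coloured by diet (red HD, grey MD, blue LD), and high and low bars occur within diets, as in rank 2, where LD 3 was at 37.5% and the other LD bulls were at most at 0.418%.

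In gene A (10 bins, 217 to 1676 counts per bull), bin 9 took 37.5% in LD 3 (555 of 1481 counts, 95% interval 35.0% to 40.0%), 34.9% in MD 19, 34.8% in MD 15 and 21.5% in MD 17. It took 12.3% in HD 11, 11.7% in MD 6 and 10.6% in HD 14, and under 1% in 12 bulls. Counts of 0 in HD 10, LD 22 and LD 23 had exact 95% upper limits of 0.276%, 0.416% and 0.448%. The bull highest in bin 9 was thus an LD bull, while the other 7 LD bulls were all under 1%. Bin 8 of the gene (rank 256) took 44.9% in LD 3 and at most 14.6% elsewhere (HD 11). It was under 1% in MD 16 (0.359%), MD 6 (0.922%) and HD 7 (0.980%). The exact 95% intervals of MD 6 and HD 7 reached 1.69% and 2.12%, so this bin lay at the limit for off. In LD 3, where bins 8 and 9 were highest, bin 4 was at 7.83%, with the next lowest LD bull at 34.1%. Bin 5 (rank 4) was low in 5 bulls, LD 3 (1.76%), LD 23 (3.78%), MD 15 (4.16%), MD 19 (4.59%) and HD 14 (5.99%), and between 18.1% and 43.6% in the other 19. Of these 5 bulls, LD 23 had no read on bin 9, so low use of bin 5 did not always go with use of bin 9.

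In gene B (8 bins, 310 to 3705 counts), bins 4 to 8 were all variable. The last bin (rank 78) took 19.1% in LD 23, 18.4% in LD 21, 16.2% in LD 1, 15.4% in LD 3, 12.7% in HD 7 and 11.9% in MD 18. It had no count in LD 2, LD 20, LD 22, LD 24, HD 10 and MD 16, in which between 310 and 502 counts on the gene allow shares of up to 0.598% to 0.968%. The LD group was split into 4 bulls above 15% and 4 at 0. Bin 7 moved with bin 8 over bulls (r = 0.90). The 6 bulls above 10% had 482 to 3064 counts on the gene, and MD 15, with the highest count of all bulls (3705), was also under 1% (0.810%).

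In gene C (8 bins, 136 to 1759 counts), the first 3 bins were nearly without reads in 4 bulls. Bin 3 (rank 197) had 0 counts in MD 15, 0.216% in LD 21, 0.658% in MD 18 and 1.46% in MD 6, and between 7.15% and 15.4% in the other 20. The same 4 bulls had the highest shares of bin 4 (rank 3), 53.2% in LD 21, 51.3% in MD 6, 50.5% in MD 15 and 40.8% in MD 18, and the other 20 had at most 35.9%. Bin 5 went with bin 4 (r = 0.88) and the last bin went against it (r = -0.89). The last bin took 9.55% in MD 15 and 11.2% in LD 21, and up to 37.5% in LD 3, where bin 4 was lowest (7.35%). The 4 bulls were 3 on MD and 1 on LD, and bin 3 did not pass edgeR's test in any contrast of diets (adjusted p = 1.00 in each).

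The 2 genes with 3 variable bins held no on or off bin. In gene D (8 bins, 216 to 906 counts), bin 4 took 55.1% in LD 21, 46.1% in MD 15 and 42.1% in HD 14, and 5.88% in LD 24. Bin 2 went against it (r = -0.76) and took 13.8% in LD 21 and 53.3% in LD 24, with the highest share, 56.4%, in HD 9. Bin 3 was lowest in MD 6 (8.80%) and highest in LD 1 (40.4%). In a gene here called E (8 bins, 110 to 280 counts), bin 5 ran from 26.3% to 56.5%, bin 3 from 5.88% to 25.3% and the last bin from 12.7% to 36.7%. The bulls highest or lowest in these 6 bins included bulls of each diet.

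Outside these genes the shares graded from low to high. The widest gap between neighbouring ordered shares that left at least 3 bulls on each side was in the median 20.5% of the spread. It passed 50% in no on or off bin and in 1 other bin (51.7%), rank 93, the first of 11 bins. There HD 13 (7.19%), HD 8 (8.91%) and HD 7 (9.75%) lay below the gap and the other 21 bulls at 17.8% to 26.4%. In rank 35, the last of 5 bins, HD 13 (56.9%), HD 8 (55.1%) and HD 14 (54.6%) lay above all others, of which the highest was HD 7 at 44.4%.

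Of the 260 genes, 230 held 1 variable bin, 25 held 2, 2 held 3, 1 held 4 and 2 held 5. Pairs of variable bins in one gene numbered 57. The correlation of their shares over the 24 bulls was negative in 45 pairs, below -0.7 in 27 and above 0.7 in 5, with a median of -0.66. Shares of a gene sum to 100%, so a negative correlation between its large bins is built in, most of all in genes of 3 bins. The 5 pairs of a first with a last bin were all negative, and the 5 pairs above 0.7 were all neighbouring bins. Besides the pairs above, these were bins 16 and 17 of a 17-bin gene (r = 0.93) and bins 7 and 8 of the gene of rank 7 (r = 0.85).

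HD 13 and HD 14 held the highest share of 62 and 77 of the 300 bins, so that 139 (46.3%) peaked in one of these libraries, compared with 23.3% of all bins ranked. HD 14 was also the shallowest library, with 9163675 counts on bins against 11676948 in the next, and HD 13 held 13666449. The part of depth in these extremes was not tested. Each of the other 22 bulls held the highest share of 0 to 18. HD 8 held the lowest share most often (39 bins), followed by HD 14 (34). The distance of a bull from the median share of a bin had a median of 8.23 percentage points in HD 13 and 8.99 in HD 14, and 1.94 to 4.77 in the others. The direction followed the place in the gene. For first bins, HD 13 and HD 14 differed from the median by 6.75 and 7.10 percentage points, and for last bins by 6.44 and 6.74, while for inner bins the differences were 0.58 and -0.32. HD 13 was above the median in 80 of 111 first, 74 of 115 last and 39 of 74 inner bins, and HD 14 in 75, 79 and 36.

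**Figure D4:**
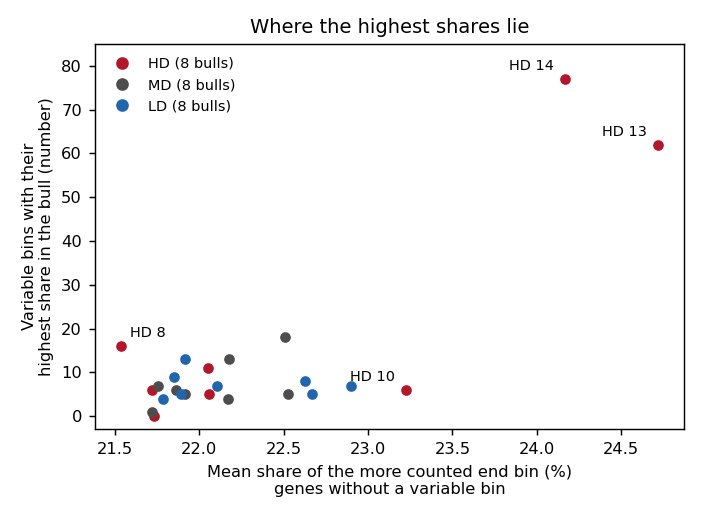
Number of variable bins that had their highest share in a bull (y axis) against the mean share of the more counted end bin over genes without a variable bin (x axis, percent), one point per bull coloured by diet. HD 13 (62 bins) and HD 14 (77 bins) lie apart from the other 22 bulls on both axes.

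The share of the more counted end bin, taken over genes without variable bins, moved with many of the 300. Over the 24 bulls, which share library and depth on both axes, r was above 0.7 in 58 bins and below -0.7 in 7 (21.7% together, against 6.79% of all bins ranked). Of the 58, 30 were first bins, 25 last and 3 inner. Bins chosen for a wide spread have more room for a high r than bins near counting error. A larger part beyond 0.7 than over all bins ranked thus follows at least partly from the choice. Without HD 13 and HD 14, 22 were above 0.7 and none below -0.7 (7.33% together, against 1.86% of all bins ranked). Rank 137, the first of 19 bins, had r = 0.95, and r = 0.83 without these bulls. It took 57.8% in HD 13, 56.0% in HD 14, 46.3% in HD 10 and 30.9% to 44.3% in the others.

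Other library measures moved with fewer bins. The share of reads outside exons, 9.54% to 21.4% of a library, had r above 0.7 with 12 bins and below -0.7 with 11 (7.67%, against 0.375% of all ranked). The extremes were rank 46, the last of 17 bins (r = -0.93), and bin 2 of 6 of ENSBTAG00000023611, rank 123 (r = 0.92). Rank 46 took 12.2% in MD 6, the library with the largest share outside exons, and 43.2% in LD 2. The level of the gene, as log2 CPM (counts scaled to library size), had r above 0.7 with 12 bins and below -0.7 with 12 (8% against 1.05%). Rank 118, the first of 4 bins, had r = 0.93 with the level of its gene, and rank 27, the first of 11 bins, had r = -0.84. The gene count holds the bin's own reads and is the denominator of its share, so share and level are not independent. No variable bin reached 0.7 in either direction with the share of low quality alignments. Here too, a larger part beyond 0.7 than over all bins ranked follows at least partly from the choice by spread. The part of these measures in the spread between bulls was not tested.

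The diets were compared for bin usage with edgeR's quasi-likelihood test of each bin against the rest of its gene, over 107648 bins and with an adjusted p under 0.1. It was run on 298 of the 300, and ranks 43 and 101 were left out because no other bin of their genes passed the filter on low counts. Between HD and MD, 2 of the variable bins differed, both higher in HD, and 8 of all bins tested (0.00743%) did, 6 of them higher in HD (0.00557%). At an unadjusted p under 0.05, 25 of the variable bins (8.39%) and 0.771% of all bins passed. Between HD and LD, none passed the adjusted threshold (0.0% of all bins), with 18 (6.04%) at an unadjusted p under 0.05 and 0.486% of all. Between MD and LD none passed (0.0%), with 1 (0.336%) at an unadjusted p under 0.05 and 0.124% of all. In all 3 contrasts the part of all bins that passed lay far below 0.05, the part expected if no bin differed. The p-values of this test thus ran high, and a bin that did not pass is not shown to be equal between diets. The limma voom test with diffSplice called 3 of the variable bins between HD and MD (0.00557% of all bins) and 0 in each other contrast, with 62, 42 and 4 at an unadjusted p under 0.05, where 1.27%, 0.832% and 0.357% of all bins passed. The limma test on transformed shares called 0, 0 and 0, and 0.00338% of all bins between HD and MD, with 96, 56 and 8 at an unadjusted p under 0.05, where 9.41%, 6.43% and 3.11% of all passed. Leaving out HD 13 and HD 14, edgeR's test at an unadjusted p under 0.05 passed 12 of the variable bins between HD and MD (4.01%, against 0.427% of all) and 4 between HD and LD (1.34%, against 0.277%). With the share of reads in end bins as a covariate it passed 12 (4.03%, against 0.394%) and 6 (2.01%, against 0.293%). Between HD and MD it passed 15 (5.03%, against 0.889%) with the reads outside exons as a covariate. With only the 2 diets fitted it passed 16 (5.37%, against 0.49%), and without the filter on low counts 28 (9.33%, against 1.75%). All 3 contrasts share bulls, and variable bins were chosen by a spread that differences between diets add to. Permutation p-values of single bins given below are not adjusted over bins. Such bins were named for a small p, a large difference or a wide spread, so these p-values are descriptive.

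The last bin of ENSBTAG00000020878 (rank 1) was the most counted bin of its gene and was higher in HD. Its share in HD bulls 7 to 14 was 31.4%, 48.3%, 18.5%, 25.6%, 16.5%, 10.6%, 46.3% and 58.5%. In MD bulls it ran from 7.41% over a median of 14.4% to 24.4%, and in LD bulls from 9.31% over 17.0% to 33.2%. Of the 8 HD bulls, 5 lay above every MD bull and 3 above every LD bull, and the ranges overlapped. HD bulls averaged 32.0 ± 17.3% (SD, n = 8 per diet), MD bulls 15.04 ± 4.94% and LD bulls 18.4 ± 8.42%. HD exceeded MD by 16.9 percentage points (SE 6.36; edgeR adjusted p = 0.0254; two-sided exact permutation p = 0.0163) and LD by 13.6 (SE 6.80; edgeR adjusted p = 1.00; exact permutation p = 0.0678). Without HD 13 and HD 14 the difference from MD was 10.1 percentage points (SE 5.77, exact permutation p = 0.0699) with an edgeR adjusted p of 1.00, and the difference from LD was 6.80 (SE 6.26, exact permutation p = 0.282). The edgeR adjusted p between HD and MD was 1.00 without HD 14 alone, 1.00 with the end bin share as a covariate, 0.203 with library size only and 0.821 with only the 2 diets fitted. The gene was counted 162 to 567 times, and its total did not pass the test between HD and MD (log2 fold change -0.12, SE 0.19, edgeR adjusted p = 0.702).

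Bin 17 of 29 of ENSBTAG00000001529 (rank 159) was an inner bin that was higher in HD. HD bulls 7 to 14 had 12.2%, 24.6%, 9.58%, 18.5%, 6.03%, 5.10%, 14.9% and 18.2%. MD bulls had 3.44% to 11.2% (median 6.62%) and LD bulls 5.52% to 10.3% (median 7.13%). Of the HD bulls, 5 lay above every MD and every LD bull, and 3 lay within or below the range of the others. HD bulls averaged 13.6 ± 6.72% (SD, n = 8 per diet), MD bulls 6.44 ± 2.596% and LD bulls 7.27 ± 1.55%. HD exceeded MD by 7.20 percentage points (SE 2.55; edgeR adjusted p = 0.0437; exact permutation p = 0.0129) and LD by 6.37 (SE 2.44; edgeR adjusted p = 1.00; exact permutation p = 0.0183). Without HD 13 and HD 14 the difference from MD was 6.24 (SE 3.24; exact permutation p = 0.0539; edgeR adjusted p = 0.391), and the difference from LD was 5.41 (SE 3.15, exact permutation p = 0.0779). The edgeR adjusted p between HD and MD was 0.129 without HD 14 alone, 1.00 when adjusted for reads outside exons, 0.898 for the end bin share, 0.206 with library size only and 0.550 with only the 2 diets fitted. Its gene total gave a log2 fold change of -0.19 (SE 0.13, edgeR adjusted p = 0.331) between HD and MD.

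The first bin of 7 of ENSBTAG00000001977 (rank 17) had the largest difference in means between HD and MD of all bins ranked, in the direction of lower shares in HD. HD bulls 7 to 14 had 40.3%, 30.3%, 38.1%, 31.7%, 38.7%, 42.1%, 22.5% and 22.7%. MD bulls ran from 40.6% over 50.8% to 58.1% and LD bulls from 37.3% over 50.7% to 63.5%. Of the 8 HD bulls, 7 lay below every MD bull and 4 below every LD bull. HD bulls averaged 33.3 ± 7.73% (SD, n = 8 per diet), MD bulls 51.0 ± 5.48% and LD bulls 50.3 ± 7.46%. HD differed from MD by -17.7 percentage points (SE 3.35, exact permutation p = 0.000311) and from LD by -17.1 (SE 3.80, exact permutation p = 0.000777). These p-values are not adjusted over the bins ranked, and a bin at the extreme of all differences has a small one by choice. The tests over all bins did not give one answer, as the adjusted p between HD and MD was 1.00 with edgeR, 0.233 with limma on transformed shares and 0.0280 with limma voom. Between HD and LD it was 1.00 with edgeR and 0.197 at the lowest over the alternatives. Without HD 13 and HD 14 the difference from MD was -14.1 (SE 2.74, exact permutation p = 0.00133), and 5 of the 6 remaining HD bulls lay below every MD bull. The difference from LD was then -13.5 (SE 3.27, exact permutation p = 0.00333). The gene held 122 to 314 counts per bull.

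**Figure D5:**
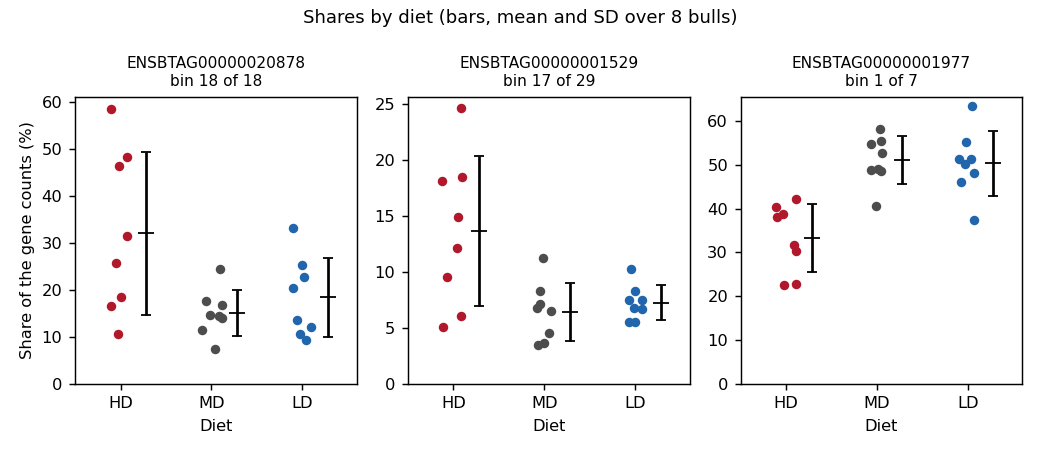
Share of the gene's counts in percent (y axes) by diet (x axes) for 3 variable bins, one point per bull, with the mean and SD over 8 bulls in black. HD bulls averaged 32.0% and 13.6% in the first and second panel, above MD (15.04% and 6.44%), and 33.3% in the third panel, below MD (51.0%).

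Bin 2 of 6 of ENSBTAG00000023611 (rank 123) had the third smallest p between HD and MD among the variable bins and did not pass. HD bulls averaged 9.81 ± 4.20% (SD, n = 8 per diet), MD bulls 16.1 ± 8.22% and LD bulls 13.05 ± 5.48%. HD was thus apart from MD by -6.25 percentage points (SE 3.27; edgeR adjusted p = 1.00; exact permutation p = 0.0690), and by -5.67 without HD 13 and HD 14 (exact permutation p = 0.142). This was the bin that followed the share of reads outside exons, which averaged 12.3 ± 2.17% in HD, 14.5 ± 3.28% in MD and 13.3 ± 1.83% in LD libraries, and its part in the difference was not tested. Rank 7 also went with that share (r = -0.82), and it averaged 52.4 ± 5.78% in HD against 35.9 ± 11.3% in MD bulls (edgeR adjusted p = 1.00, exact permutation p = 0.00249, and 0.00932 without HD 13 and HD 14). The 4 bins of smallest p between HD and MD also held rank 270, the first of 16 bins, at 30.8% in HD 8, 28.04% in HD 14 and 17.97% in HD 13, where MD bulls had at most 11.5%. HD exceeded MD by 7.97 percentage points (edgeR adjusted p = 1.00, exact permutation p = 0.0202), and by 5.52 without HD 13 and HD 14 (exact permutation p = 0.0866). Between HD and LD they held rank 61, the last of 25 bins, at 34.2% in HD 13, 32.5% in HD 8 and 28.3% in HD 10, where LD bulls had at most 17.9%. HD exceeded LD by 8.52 percentage points (edgeR adjusted p = 1.00, exact permutation p = 0.0244), and by 6.96 without HD 13 and HD 14 (exact permutation p = 0.0739).

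No variable bin separated the bulls of any 2 diets without overlap. Of all bins ranked, 20 (0.0225%), 17 (0.0192%) and 10 (0.0113%) did so between HD and MD, HD and LD, and MD and LD. None among 300 is thus near the share of all bins. The median size of the difference in mean share was 4.29 percentage points between HD and MD, 3.17 between HD and LD and 1.64 between MD and LD (0.309, 0.276 and 0.227 over all bins ranked). HD had the higher mean than MD in 181 of the 300 (60.3%, against 45.1% of all bins) and than LD in 177 (59.0% against 46.1%). The median sizes without HD 13 and HD 14 were 3.15 and 2.18 percentage points (0.256 and 0.245 over all bins ranked), and HD was higher than MD in 154 (51.3%, against 48.8% of all) and than LD in 142 (47.3% against 49.8%). MD was higher than LD in 124 (41.3% against 50.5%). HD bulls also varied more among themselves, in the variable bins as over all bins ranked. The SD of a bin had a median of 6.73 percentage points within HD, 4.71 within MD and 4.65 within LD (0.890, 0.680 and 0.678 over all bins ranked), and it was largest in HD in 202 bins, in MD in 51 and in LD in 47. Without HD 13 and HD 14 the median SD in HD was 5.05, and it was largest in HD in 139, in MD in 80 and in LD in 81. The counts of bins with the largest SD, and the SD without HD 13 and HD 14, were not taken over all bins ranked.

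Between MD and LD, the smallest p among the variable bins was that of the last bin of gene B (unadjusted edgeR p = 0.00969, adjusted p = 1.00), which averaged 3.23% in MD and 8.64% in LD bulls (SE of the difference 3.55, exact permutation p = 0.169).

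The total counts of the 260 genes were compared between diets as well. The ranking used these totals only as the denominator of the share and for the minimum of 100 counts, with no diet label. Between HD and MD, 41 genes (15.8%) passed edgeR's test at an adjusted p under 0.1, 22 higher and 19 lower in HD, and 14.1% of the 15005 features tested passed. At an unadjusted p under 0.05 there were 78 (30.0%, against 29.0% of all features). DESeq2 called 52 (20.0%, against 19.9% of all), and edgeR with library size only in place of TMM called 66 (25.4%, against 23.6% of all). The direction depended on the scaling, with 27 higher and 25 lower in HD by DESeq2 but 6 higher and 60 lower with library size only, which moved the median over all features by -0.21 on the log2 scale. Between HD and LD none of the 260 passed (0.0% of all features), with 37 at an unadjusted p under 0.05 (14.2%, against 17.7% of all). DESeq2 called 7 of the 247 it could adjust (2.83%, against 6.01% of all). Between MD and LD none passed (0.0%), with 0 at an unadjusted p under 0.05 (1.07% of all) and 0 called by DESeq2 (0.0% of all). Between HD and MD the share of these genes that passed was thus near that of all features.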

How the data were processed

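For each of 24 bulls the authors deposited raw read counts per exon bin. Libraries were 1 per bull (stranded mRNA kit, single-end reads). The submitters' processing notes name TopHat2 2.0.10, Bowtie 1.1.2 and the UMD3.1 build. The paper's methods name featureCounts for gene counts. The deposited names refer to DEXSeq's bin format, and the program that counted the bins is not given in the sources used here. Rows for reads outside exons (9.54% to 21.4% of a library), low quality (6.63% to 21.0%) and ambiguous alignments (0.165% to 0.347%) were left out of counts and tests. Bins were summed to give a gene count, and a read across bins then counts in each. The 87 features that join genes were excluded. Members and gene lists were chosen with earlier results of these data known.

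Bin usage was tested in R 4.3.3 with edgeR 4.0.16 (TMM, filterByExpr, glmQLFit, diffSpliceDGE; all libraries in one fit; Benjamini-Hochberg over all bins) and limma 3.58.1, gene counts with edgeR's glmQLFTest and DESeq2 1.42.0, and single shares with two-sided exact permutation tests (12870 regroupings, or 3003 without HD 13 and HD 14; Python 3.11.15, scipy 1.17.1). Named bins were the 10 of widest spread, on or off bins, the 4 smallest p per contrast, the 5 genes with most members and the 3 bins on each side of the limit. Bins added for other reasons were chosen after their values were seen. The edgeR test of bin usage was also run on simulated counts, for HD and MD, and its outcome is not given here. Bull numbers are unique, so no pairing exists.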

Additional observations from a re-analysis of the deposited data

Results flagged for a closer look

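Within a diet of 8 bulls, the bull farthest from the rest was set against Dixon's 95% critical value in 34 measures. Of 102 groups, 12 held a bull beyond it, where chance gives about 1 in 20 groups (5.1). This excess is no result, since the bins were chosen for a wide spread between bulls, and most were bins of genes A, B and C, whose shares are not independent. In gene A, LD 3 took 37.4747% on bin 9 (rank 2; next LD bull 0.418%), 44.9021% on bin 8 (rank 256; next 9.50%) and 7.83255% on bin 4 (rank 19; next 34.1%). In gene B, HD 7 took 12.7046% on bin 8 (rank 78; next HD bull 4.56%) and 19.3844% on bin 7 (rank 173; next 9.53%), and MD 18 took 11.9119% (next MD bull 4.15%) and 15.6156% (next 8.71%) on the same bins. In gene C, LD 21 took 0.215517% on bin 3 (rank 197; next 8.82%) and 27.8017% on bin 5 (rank 162; next 16.2%). The others were LD 24 at 36.4865% on bin 11 of an 18-bin gene (rank 5; next 57.9%), MD 18 at 59.7633% on the last of 13 bins (rank 9; next 40.3%) and LD 22 at 16.2465% on the first of 23 bins (rank 238; next 11.6%).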

How the results depend on the processing

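The 2 bins called between HD and MD fell to 0 with limma on transformed shares, with library size only, with only the 2 diets fitted, with the end bin share as a covariate and with HD 13 and HD 14 both left out, and to 1 when adjusted for the reads outside exons. Leaving out HD 14 gave 0 and leaving out HD 13 gave 2. Over all bins, 8 were called (6 higher and 2 lower in HD), against 10 higher and 0 lower when adjusted for the reads outside exons, 0 higher and 3 lower without HD 14, 7 higher and 0 lower without HD 13, and 0 higher and 1 lower without both or with the end bin share. Alternatives with HD 13 or the end bin share were chosen after seeing the data. The 2 called bins passed in 5 and 4 of 11 alternatives, with adjusted p of 0.0113 to 1.00 for the last bin of ENSBTAG00000020878 and 0.0362 to 1.00 for bin 17 of ENSBTAG00000001529. The first bin of ENSBTAG00000001977 passed only with limma voom (0.0280). The 300 bins ranked by highest minus lowest share had 156 in common with these and held 2 on or off. The 300 with at least 500 counts in every bull had 28 in common and held 0 on or off, and this minimum leaves out the 3 genes of the 4 on or off bins, which fell to 136, 217 and 310 counts. Bins at either end numbered 219 to 235 in these and the other rankings. Called gene totals between HD and MD went from 41 to 66 with library size only (25.4% of these genes and 23.6% of all features; 6 higher and 60 lower in HD), where the median over all features moved by -0.21 on the log2 scale, and those between HD and LD from 0 to 7 with DESeq2 (2.83% of these genes and 6.01% of all). The causes were not tested. Of 117 counts and adjusted p-values under the alternatives, 90 stayed within 1.5 times or on the same side of the threshold, many of them bins or genes that were not called to begin with. No paired analysis was possible because bull numbers are unique. Shares of genes near 100 counts are the least precise.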
